A study of Homo sapiens with 12 samples.

Results

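Polycomb repressive complex 2 (PRC2) is described here through the transcripts of 10 of its genes, chosen by symbol from 36762 gene symbols in each count table: the core genes EZH1, EZH2, EED and SUZ12, the accessory genes JARID2, AEBP2, MTF2 and PHF19, and the histone chaperones RBBP4 and RBBP7. All 10 symbols were present in both tables, and all 10 passed the filter on low counts in every comparison. The cells were human embryonic stem cells (hESC) of the line UCLA1 and incipient mesoderm-like cells (iMeLC), an intermediate made from them on the way to primordial germ cell-like cells. The groups were CDKO iMeLC (lines CDKO1102, CDKO1105 and CDKO1312), CTRL iMeLC (lines CTRL1101, CTRL1106 and CTRL1109), CDKO hESC and CTRL hESC, with 3 libraries each. CDKO lines carry a knockout of the catalytic domain of TET1, an enzyme that oxidises 5-methylcytosine in DNA, and CTRL lines are the controls; all derive from the 1 parental line UCLA1. The hESC libraries are numbered 1 to 3, since their columns carry no line number, and the labels do not say whether libraries came from separate cultures, so p-values measure the spread between libraries.

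PRC2 places methyl groups on lysine 27 of histone H3, a mark carried by repressed developmental genes. EZH1 and EZH2 are the alternative catalytic subunits, EED binds the methylated lysine and stimulates the enzyme, SUZ12 is the scaffold, and RBBP4 and RBBP7 bind histones in this and several other complexes. MTF2 and PHF19 are Polycomb-like proteins that define the form called PRC2.1, while JARID2 and AEBP2 define PRC2.2. In pluripotent cells the complex is known for holding regulators of later lineages silent while they await differentiation, and EZH2 is known for tracking cell division, with EZH1 more prominent in resting cells. In human stem cells the loss of core subunits is known to disturb self-renewal and differentiation.

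The promoters of EED, EZH2 and SUZ12, which rose across stages, and of JARID2, which fell, are shown, since these 4 genes passed in both genotypes under all 18 alternative settings that gave a test. Each stretch runs from 250 bases before to 50 bases after an annotated start, from RefSeq on GRCh38.p14, written 5′ to 3′ on the gene's strand. EZH2 is at chr7:148884242-148884541 (minus strand), EED at chr11:86244503-86244802 (plus strand), SUZ12 at chr17:31936757-31937056 (plus strand) and JARID2 at chr6:15245819-15246118 (plus strand), the first of the windows that the table lists for EZH2 and JARID2. The genes span 148807383 to 148884321 on chromosome 7 (EZH2), 86244544 to 86278813 on chromosome 11 (EED), 31937018 to 32001045 on chromosome 17 (SUZ12) and 15246296 to 15522040 on chromosome 6 (JARID2) in GENCODE on GRCh38. Capitals mark words of E2F type, the cell cycle transcription factors, found on either strand.
EZH2: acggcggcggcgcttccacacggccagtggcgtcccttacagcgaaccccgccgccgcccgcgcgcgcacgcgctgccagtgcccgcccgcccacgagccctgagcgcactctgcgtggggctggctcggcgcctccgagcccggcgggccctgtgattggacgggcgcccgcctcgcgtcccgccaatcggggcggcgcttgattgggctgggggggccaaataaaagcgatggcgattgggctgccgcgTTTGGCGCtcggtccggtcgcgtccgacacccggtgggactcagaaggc
EED: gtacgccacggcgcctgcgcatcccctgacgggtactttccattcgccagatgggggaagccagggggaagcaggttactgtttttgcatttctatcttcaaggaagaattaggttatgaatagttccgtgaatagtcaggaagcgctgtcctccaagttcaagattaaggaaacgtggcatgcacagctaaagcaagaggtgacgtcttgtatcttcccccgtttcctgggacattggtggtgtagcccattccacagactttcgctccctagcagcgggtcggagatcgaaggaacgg
SUZ12: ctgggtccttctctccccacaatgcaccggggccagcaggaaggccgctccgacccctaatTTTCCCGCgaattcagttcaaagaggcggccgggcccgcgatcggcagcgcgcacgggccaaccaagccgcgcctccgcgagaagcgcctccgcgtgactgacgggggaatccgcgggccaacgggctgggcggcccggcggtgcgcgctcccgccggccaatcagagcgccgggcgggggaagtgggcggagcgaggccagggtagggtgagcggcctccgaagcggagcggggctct
JARID2: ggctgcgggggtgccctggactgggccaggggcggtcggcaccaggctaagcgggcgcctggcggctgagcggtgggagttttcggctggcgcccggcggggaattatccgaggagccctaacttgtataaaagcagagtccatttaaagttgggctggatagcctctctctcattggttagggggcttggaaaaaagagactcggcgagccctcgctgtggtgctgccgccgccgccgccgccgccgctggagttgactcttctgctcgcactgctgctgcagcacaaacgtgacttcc

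The 4 words searched were TTTCCCGC, TTTGGCGC, TTTCGCGC and TTTGCCGC, on both strands; they share their TTT start and do not contain each other. The 10 subunit genes had 15 windows in all. A word lay in 6 of these windows, 1 each of EZH1, EZH2, SUZ12, MTF2, PHF19 and AEBP2. Of all 35116 windows in the table, 3.31% held a word, and 5.66% of the windows at least as rich in CG dinucleotides as the poorest subunit window did. That poorest window was the one of EED, while the subunit windows with a word held 28 to 48 CG dinucleotides. The 5.66% is thus not matched to them in CG, and enrichment was not tested. EED, EZH2, SUZ12 and JARID2 held 16, 46, 40 and 24 CG dinucleotides in the windows shown, where the median window of the table held 14. EED, the gene with the largest stage rise, had the poorest of these 4 windows in CG and no word, and EZH2, with the next largest, had the richest and a word. Such a match describes the letters only; binding was not measured in these libraries.

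Library totals ranged from 52121702 to 109479071 counts in iMeLC and from 12517593 to 18855099 counts in hESC, so low counts are measured more precisely in iMeLC. The 10 subunit genes took between 0.131% and 0.175% of the counts of a library. The 6 pluripotency markers summed to 3990 to 4685 CPM in iMeLC and 8048 to 9746 CPM in hESC, as CPM of library totals. The 7 primitive streak markers summed to 192 to 805 CPM in iMeLC, lowest in CTRL1106, and 13.2 to 159 CPM in hESC. In neither sum did the stages overlap. Of single markers, POU5F1, SOX2 and TBXT did not overlap either, but others did. MIXL1 went down to 21.6 CPM in CTRL iMeLC and up to 38.4 CPM in CDKO hESC, and EOMES to 15.5 and 42 CPM. NANOG ran from 85.7 to 181 CPM in CTRL iMeLC and from 145 to 171 CPM in CTRL hESC. CDKO hESC 3 stood apart in its endoderm markers, with 566 CPM against 45.2 to 63.3 CPM in the other CDKO hESC libraries. Its streak markers were at 159 CPM against 27.7 and 46.1 CPM. TET1 itself, scaled over the 12 libraries, stood at 304 to 356 CPM in CDKO iMeLC and 288.5 to 322 CPM in CTRL iMeLC. On the same scale it stood at 335 to 396 CPM in CDKO hESC and 290 to 339 CPM in CTRL hESC. A count over the whole gene cannot show the loss of the catalytic domain. In bulk RNA, fewer cells of a type and less RNA per cell cannot be told apart.

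Going from hESC to iMeLC, the subunits did not move as a block. EED and EZH2 rose several-fold, SUZ12 rose less, and JARID2 fell, in both CDKO and CTRL lines. Smaller rises of RBBP4, RBBP7, PHF19, AEBP2 and MTF2 passed the test as well, but not in both genotypes under every scaling of the libraries, and EZH1 did not pass. This comparison asks how the makeup of PRC2 transcripts differed between the stages within 1 genotype; stage coincides with the count table, the date each table carries and the sequencing depth, and these cannot be told apart.

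EED was the subunit gene with the largest rise. Its levels were 42.1, 41.4 and 42.4 CPM (read counts relative to the TMM-scaled size of the library) in iMeLC CDKO1102, CDKO1105 and CDKO1312, and 7.44, 8.32 and 7.89 CPM in CDKO hESC 1, 2 and 3. In the control lines EED stood at 39.3, 38.6 and 37.5 CPM in iMeLC CTRL1101, CTRL1106 and CTRL1109, and at 9.84, 8.19 and 8.21 CPM in CTRL hESC 1, 2 and 3. Every iMeLC library lay above every hESC library, by a gap much wider than the spread within a group. The fold change was 5.31 in CDKO (95% interval 4.56 to 6.19, adjusted p = 8.76e-10) and 4.40 in CTRL (3.79 to 5.11, adjusted p = 3.41e-09), by edgeR's quasi-likelihood test over the 12 libraries. Of 20262 genes tested, 3.47% had a larger log2 fold change than EED in CDKO and 3.48% in CTRL.

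EZH2, the catalytic subunit of dividing cells, rose nearly as far. It stood at 96.5, 100.1 and 90.7 CPM in iMeLC CDKO1102, CDKO1105 and CDKO1312, and at 19.9, 25 and 22 CPM in CDKO hESC 1, 2 and 3. iMeLC CTRL1101, CTRL1106 and CTRL1109 had 101, 86.4 and 92.9 CPM, and CTRL hESC 1, 2 and 3 had 31.2, 23.9 and 23.9 CPM. The stages again did not overlap, and CTRL hESC 1 was the highest of the hESC libraries. The fold change was 4.29 in CDKO (3.57 to 5.15, adjusted p = 1.26e-08) and 3.55 in CTRL (2.96 to 4.25, adjusted p = 5.86e-08). A larger log2 fold change was seen for 4.85% of genes in CDKO and 5.09% in CTRL.

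The other catalytic subunit, EZH1, behaved differently. Its levels were 19.6, 22.6 and 21.3 CPM in iMeLC CDKO1102, CDKO1105 and CDKO1312, and 20.9, 18 and 19.1 CPM in CDKO hESC 1, 2 and 3. They were 20.1, 29.6 and 27.8 CPM in iMeLC CTRL1101, CTRL1106 and CTRL1109, and 20.9, 20.1 and 23.4 CPM in CTRL hESC 1, 2 and 3. The stages overlapped in both genotypes, with iMeLC CTRL1101 the lowest of the control iMeLC libraries. EZH1 had a log2 fold change of 0.13 in CDKO (95% interval -0.17 to 0.44, adjusted p = 0.435) and 0.27 in CTRL (-0.04 to 0.57, adjusted p = 0.13). Without iMeLC CTRL1101 the CTRL value was 0.38 (adjusted p = 0.0124), and with library totals alone the values were -0.26 in CDKO and -0.02 in CTRL.

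SUZ12, without which the complex is unstable, stood at 90.9, 92.4 and 80.7 CPM in iMeLC CDKO1102, CDKO1105 and CDKO1312, and at 42.8, 47.4 and 44.8 CPM in CDKO hESC 1, 2 and 3. In CTRL lines it stood at 80.7, 80.3 and 78.5 CPM in iMeLC CTRL1101, CTRL1106 and CTRL1109, and at 51.3, 50.5 and 53.3 CPM in hESC 1, 2 and 3. The stages did not overlap, with the CDKO hESC libraries below the CTRL hESC ones. The fold change was 1.95 in CDKO (1.74 to 2.19, adjusted p = 2.47e-07) and 1.54 in CTRL (1.38 to 1.73, adjusted p = 1.69e-05).

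JARID2, the substoichiometric subunit that helps bring PRC2.2 to chromatin, was the only subunit gene to fall. It stood at 500.8, 556.5 and 577 CPM in iMeLC CDKO1102, CDKO1105 and CDKO1312, and at 763, 778 and 690.3 CPM in CDKO hESC 1, 2 and 3. In CTRL lines it stood at 615, 546 and 488 CPM in iMeLC CTRL1101, CTRL1106 and CTRL1109, and at 710.4, 832 and 820.4 CPM in hESC 1, 2 and 3. All iMeLC libraries lay below all hESC libraries. The fold change was 0.732 in CDKO (0.63 to 0.852, adjusted p = 0.00197) and 0.698 in CTRL (0.60 to 0.812, adjusted p = 8.45e-04).

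**Figure D1:**
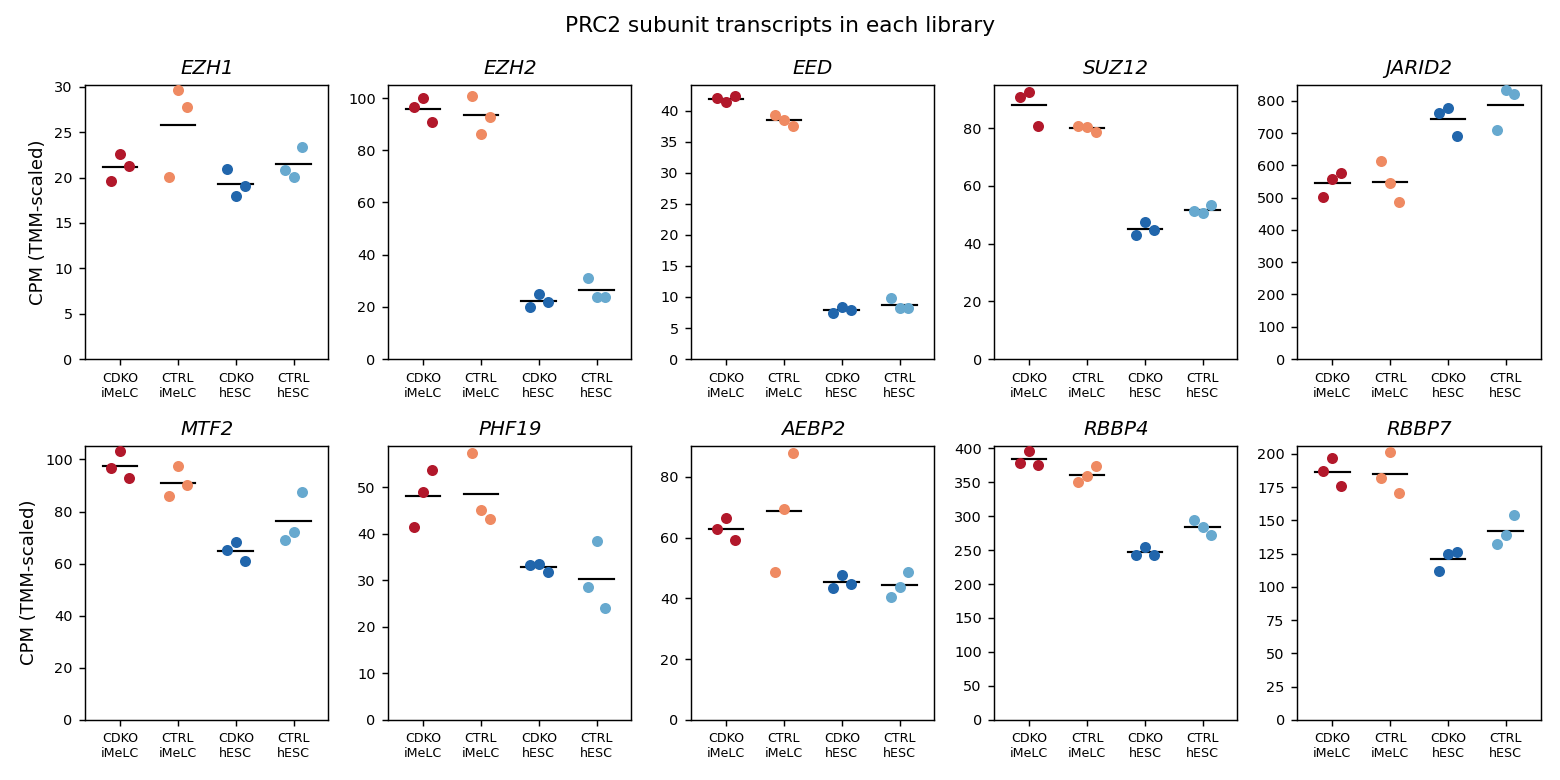
Level of each PRC2 subunit transcript in CPM (y axis, TMM-scaled over the 12 libraries, linear from 0) in each library; points are libraries, 3 in each group, and black lines are group means. EED, EZH2 and SUZ12 are higher in every iMeLC library than in any hESC library, JARID2 is lower, and the EZH1 points of the stages overlap.

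The remaining accessory and shared subunits rose by less. PHF19 averaged 48.1 ± 6.17 CPM in CDKO iMeLC and 32.9 ± 0.926 CPM in CDKO hESC (SD, n = 3 each), and 48.5 ± 7.65 CPM in CTRL iMeLC and 30.3 ± 7.28 CPM in CTRL hESC. AEBP2, which stabilises SUZ12 in PRC2.2, averaged 62.9 ± 3.75 CPM in CDKO iMeLC and 45.3 ± 2.18 CPM in CDKO hESC, and 68.8 ± 19.6 CPM in CTRL iMeLC and 44.3 ± 4.16 CPM in CTRL hESC. The wide CTRL spread of AEBP2 came from 48.8, 69.5 and 87.9 CPM in lines CTRL1101, CTRL1106 and CTRL1109. Their folds ran from 1.39 (AEBP2 in CDKO, adjusted p = 0.0233) to 1.6 (PHF19 in CTRL, adjusted p = 0.0036). The AEBP2 call in CDKO was lost in 8 of 18 alternative settings, and its log2 fold change in CTRL was 0.63, or 0.37 without CTRL1109.

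RBBP4 averaged 383.5 ± 11 CPM in CDKO iMeLC and 247 ± 6.27 CPM in CDKO hESC (SD, n = 3 each), and 361 ± 11.8 CPM in CTRL iMeLC and 284 ± 10.5 CPM in CTRL hESC. Its close relative RBBP7 averaged 187 ± 10.5 CPM in CDKO iMeLC and 121 ± 7.78 CPM in CDKO hESC, and 185 ± 15.8 CPM in CTRL iMeLC and 142 ± 10.8 CPM in CTRL hESC. Both genes rose about alike, with folds of 1.55 and 1.54 in CDKO and 1.27 and 1.30 in CTRL (adjusted p of 0.00307 or less). MTF2 averaged 97.6 ± 5.12 CPM in CDKO iMeLC and 64.8 ± 3.53 CPM in CDKO hESC, a fold of 1.51 (adjusted p = 1.80e-04). In CTRL it averaged 91.1 ± 5.91 CPM in iMeLC and 76.2 ± 9.97 CPM in hESC, a fold of 1.2 (adjusted p = 0.0415) between libraries that overlapped. This MTF2 call in CTRL was lost in 13 of 18 alternative settings, among them RLE size factors (adjusted p = 0.17) and DESeq2 (adjusted p = 0.197); its log2 value was 0.26, 0.41 without CTRL hESC 3 and 0.16 without CTRL1106.

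In each genotype, then, 8 of the 10 subunit genes passed as higher in iMeLC, 1 as lower and 1 did not pass by edgeR; DESeq2 called 8 higher in CDKO and 7 in CTRL, without MTF2. The background was high: 32.1% of all tested genes were called higher and 27.7% lower in CDKO, and 29.5% higher and 19.9% lower in CTRL. Among the 10007 genes of mean at least 10 CPM 52.7% were higher and 20.1% lower in CDKO, and 48.6% and 18.6% in CTRL. The share of all genes without overlap between the stages is not given here, so the lack of overlap for single subunit genes stands without a background. The median log2 fold change of the subunit genes was 0.61 in CDKO and 0.50 in CTRL, beside 0.36 and 0.29 for genes of mean at least 10 CPM and -0.08 and -0.01 for all genes. The log2 fold changes of RBBP4, RBBP7, PHF19, AEBP2 and MTF2, from 0.26 to 0.68, thus lay nearer to those of other well-counted genes than EED and EZH2 did, at 1.83 to 2.41.

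**Figure D2:**
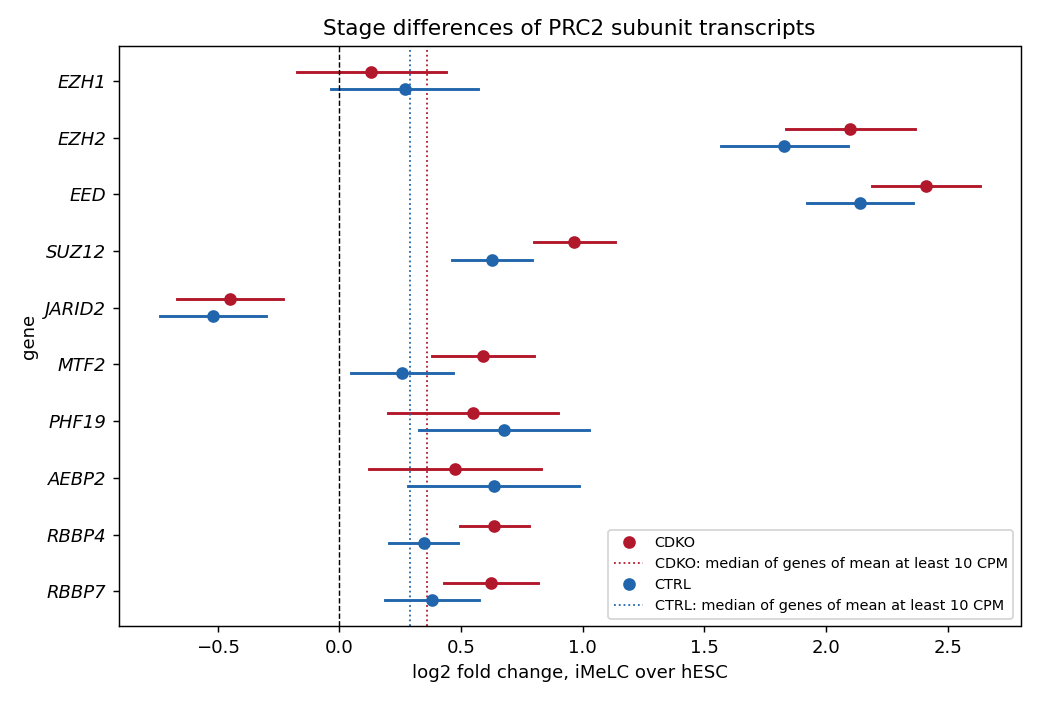
Log2 fold change of each subunit transcript, iMeLC over hESC (x axis), in CDKO (red) and CTRL (blue) lines; points are estimates of the fit over 12 libraries, bars are 95% intervals, and dotted lines are the medians of the genes of mean at least 10 CPM, 0.36 in CDKO and 0.29 in CTRL. EED and EZH2 lie far to the right of those medians, JARID2 to the left of 0, and the smaller rises lie nearer to the medians.

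The scale on which the stages are compared matters for the smaller changes. Scaling by library totals without TMM factors moved the median of all genes by -0.39 in CDKO and -0.30 in CTRL, and the share of calls that were higher was then 33.9% in CDKO and 39.2% in CTRL, against 53.7% and 59.7% with TMM. On that scale the log2 fold changes were 2.02 and 1.84 for EED, 1.71 and 1.53 for EZH2, 0.58 and 0.33 for SUZ12, and -0.83 and -0.82 for JARID2, in CDKO and CTRL lines, and all passed. RBBP4 and RBBP7 still passed in CDKO at 0.25 and 0.24 (adjusted p = 0.00395 and 0.0453), but not in CTRL at 0.05 and 0.08. PHF19 passed in CTRL at 0.38 but not in CDKO at 0.16, AEBP2 passed in neither at 0.09 in CDKO and 0.35 in CTRL, and MTF2 in neither at 0.21 in CDKO and -0.04 in CTRL. Taken relative to the median of all genes, the subunit values on the 2 scales are alike, since the scaling moves every gene by about the same amount.

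Base composition and transcript length were also examined, because the stages come from separate tables. A trend of log2 fold change with GC content and length accounted for 6.58% of the variance over genes in CDKO and 5.86% in CTRL. Taking it off left EED at 2.16 and 1.92 and EZH2 at 1.75 and 1.49, in CDKO and CTRL lines. SUZ12, with a GC content of 38% in its longest transcript, went down to 0.53 and 0.26, MTF2 to 0.16 and -0.12, RBBP4 to 0.29 and 0.09, RBBP7 to 0.24 and 0.02, and AEBP2 to 0.04 and 0.28. JARID2 kept -0.46 and -0.51, and PHF19, the richest in GC at 57.9%, was at 0.70 and 0.80.

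The ratio between the catalytic subunits differed with stage. Per kilobase of exon, EZH2 over EZH1 was 7.02 ± 0.529 in CDKO iMeLC, 5.82 ± 1.73 in CTRL iMeLC, 1.80 ± 0.341 in CDKO hESC and 1.91 ± 0.369 in CTRL hESC (SD, n = 3 each). The lowest iMeLC ratio, 4.51, lay above the highest hESC ratio, 2.31. SUZ12 over EED went the other way, at 2.25 ± 0.187 in CDKO iMeLC, 2.23 ± 0.0222 in CTRL iMeLC, 6.12 ± 0.0419 in CDKO hESC and 6.38 ± 0.711 in CTRL hESC, with no overlap between the stages. A ratio within a library does not depend on the scaling of library sizes, so the counts of the genes named differed unequally between stages. The GC and length trend was not taken off these ratios, and stage coincides with the count table.

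Ratios within the accessory pairs were less even. JARID2 over AEBP2, the PRC2.2 pair, was 9.49 ± 1.04 in CDKO iMeLC, 9.46 ± 3.92 in CTRL iMeLC, 18 ± 1.21 in CDKO hESC and 19.5 ± 1.17 in CTRL hESC. MTF2 over PHF19, the PRC2.1 pair, ranged from 1.97 to 2.65 in CDKO iMeLC, 1.71 to 2.47 in CTRL iMeLC, 2.19 to 2.31 in CDKO hESC and 2.14 to 4.14 in CTRL hESC, so the groups overlapped. RBBP4 over RBBP7 overlapped in all 4 groups, between 1.39 and 1.73. With the longest coding transcript as the length, the RBBP4 to RBBP7 mean became 0.577 to 0.604, so which of the chaperones is more abundant depends on the transcript assumed.

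**Figure D3:**
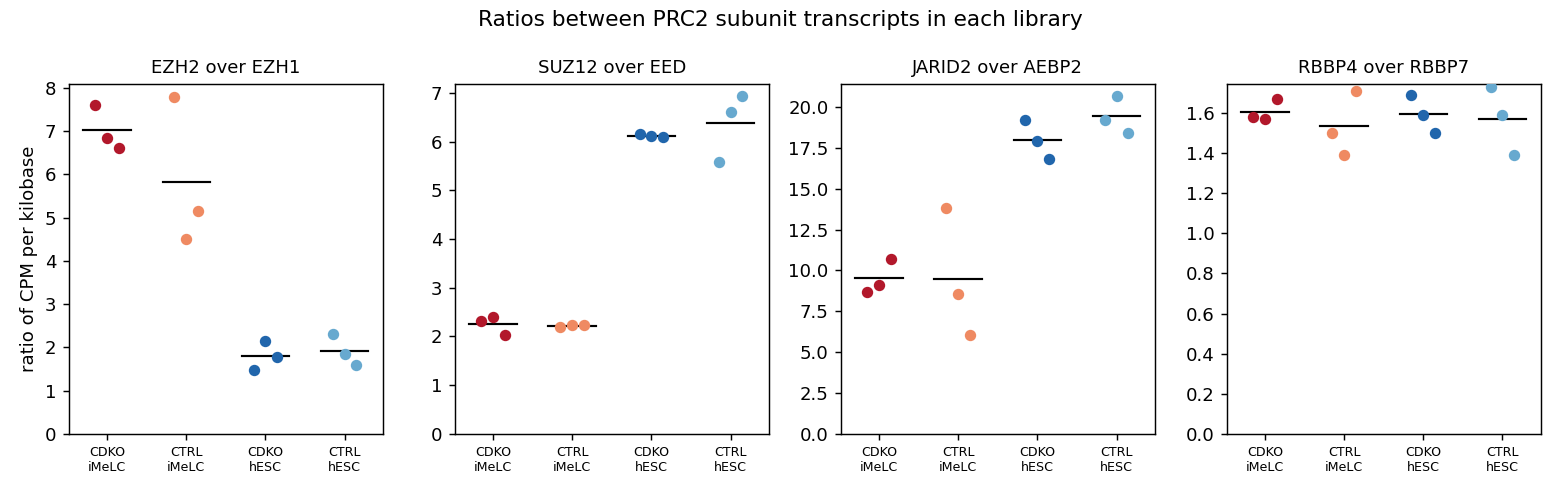
Ratio of CPM per kilobase of exon (y axis, linear from 0) for 4 pairs of subunit transcripts in each library; points are libraries, 3 in each group, and black lines are group means. EZH2 over EZH1 is higher in iMeLC, SUZ12 over EED and JARID2 over AEBP2 are lower in iMeLC, and RBBP4 over RBBP7 overlaps among the 4 groups.

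On the per-kilobase scale JARID2 was the most abundant subunit transcript in every group, at 90.6 ± 6.58 CPM per kilobase in CDKO iMeLC, 91.3 ± 10.6 in CTRL iMeLC, 124 ± 7.82 in CDKO hESC and 131 ± 11.1 in CTRL hESC. RBBP4 and RBBP7 followed in every group. Below them the order differed with stage: EZH2 was the fourth in iMeLC, at 21.2 ± 1.05 CPM per kilobase in CDKO and 20.7 ± 1.62 in CTRL, and the seventh in hESC, at 4.93 ± 0.564 in CDKO and 5.82 ± 0.934 in CTRL. In iMeLC the order went on with MTF2, SUZ12, AEBP2, PHF19, EED and EZH1, and the neighbours SUZ12 and AEBP2, and AEBP2 and PHF19, overlapped in CTRL iMeLC.

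In hESC the order after RBBP7 was MTF2, then SUZ12 and AEBP2, then EZH2, PHF19, EZH1 and EED. AEBP2 and SUZ12 overlapped in CDKO hESC, AEBP2 and EZH2 in CTRL hESC, and EZH2 and PHF19 in both. EED was the scarcest there, at 1.12 ± 0.0627 CPM per kilobase in CDKO hESC and 1.25 ± 0.135 in CTRL hESC, against 5.98 ± 0.0735 in CDKO iMeLC and 5.48 ± 0.128 in CTRL iMeLC. In iMeLC the scarcest was EZH1, at 3.03 ± 0.216 in CDKO and 3.70 ± 0.727 in CTRL. With coding transcript lengths EED moved to the seventh place in iMeLC and RBBP7 stood above RBBP4 throughout, while EED in hESC and EZH1 in iMeLC stayed last.

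**Figure D4:**
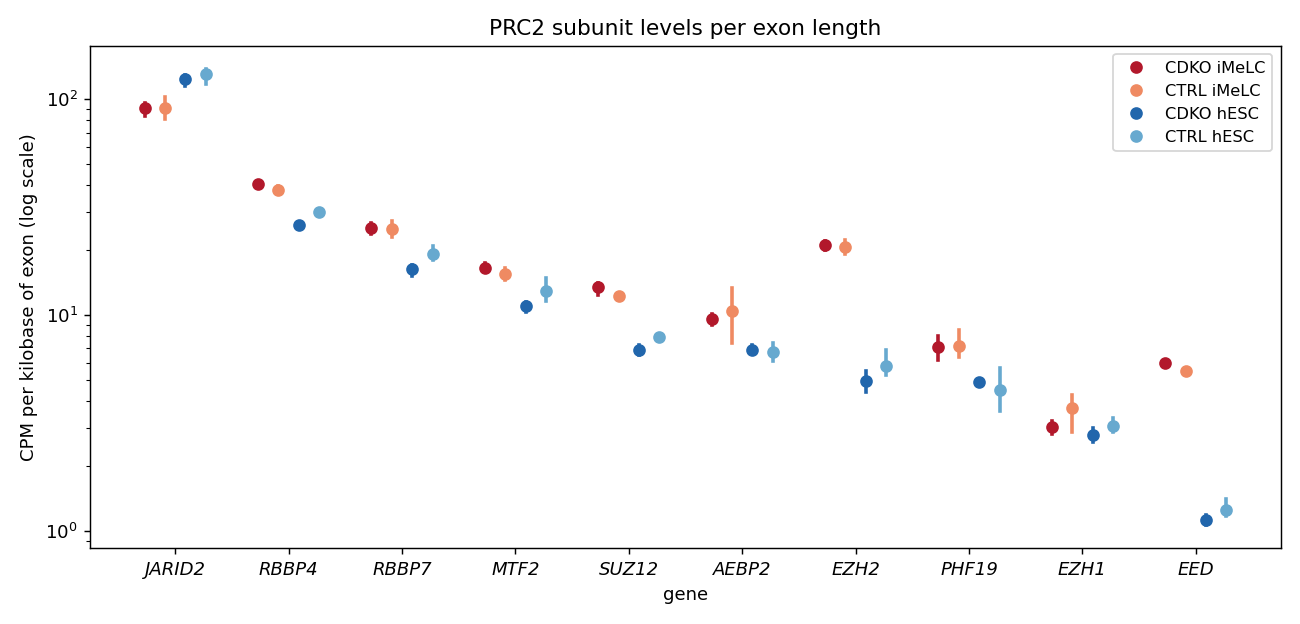
Mean level of each subunit transcript in CPM per kilobase of exon (y axis, log scale) in the 4 groups, ordered by the CTRL hESC mean; points are means of 3 libraries and bars run from the lowest to the highest library. JARID2 is the highest in every group; EED is the lowest in hESC and EZH1 the lowest in iMeLC.

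Between genotypes, no subunit gene differed past the threshold at either stage. The comparisons of CDKO with CTRL ask what loss of the TET1 catalytic domain changed within a stage, and were fitted on the 6 libraries of that stage. In iMeLC, 69 of 19999 genes were called (0.345%) and none of the 10 subunit genes, and 0 reached an unadjusted p under 0.05, where 19.8% of all genes did. DESeq2 called 1539 genes there and also none of the 10. In hESC, 226 of 17222 genes were called (1.31%) and again none of the 10, with 3 at an unadjusted p under 0.05, where 16.1% of all genes were; DESeq2 called 618 genes and none of the 10.

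In iMeLC the subunit levels of the genotypes lay close together. EED stood at 37.3, 36.0 and 37.4 CPM in CDKO1102, CDKO1105 and CDKO1312, while CTRL1101, CTRL1106 and CTRL1109 had 34.9, 34.6 and 34.0 CPM (scaled over the 6 iMeLC libraries). It was the only subunit gene whose genotypes did not overlap in iMeLC, by a narrow margin, with a log2 fold change of 0.10 (95% interval -0.09 to 0.29, adjusted p = 0.539). Over all genes 12.2% were higher and 13.9% lower without overlap. EZH2 averaged 84.2 ± 3.72 CPM in CDKO and 83.9 ± 6.21 CPM in CTRL (SD, n = 3 each), a log2 fold change of 0.01 (-0.20 to 0.21). PHF19 averaged 42.2 ± 5.31 CPM in CDKO and 43.5 ± 6.48 CPM in CTRL, a log2 fold change of -0.04 (-0.36 to 0.28). Over the 8 genes other than EZH1 and AEBP2 the lowest interval bound was that of PHF19 and the highest 0.30 (SUZ12), which limits the size of a difference and does not show that there is none.

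EZH1 and AEBP2 had the widest intervals in iMeLC. EZH1 stood at 17.4, 19.7 and 18.7 CPM in CDKO1102, CDKO1105 and CDKO1312, while CTRL1101, CTRL1106 and CTRL1109 had 17.9, 26.6 and 25.2 CPM. Only CTRL1101 lay within the CDKO range. The log2 fold change was -0.32 (95% interval -0.69 to 0.05, adjusted p = 0.311), and without CTRL1101 it was -0.47 (adjusted p = 0.0329), the 1 setting in which a subunit gene passed between genotypes. AEBP2 stood at 55.8, 58.0 and 52.2 CPM in CDKO1102, CDKO1105 and CDKO1312, against 43.4 CPM in CTRL1101, 62.4 CPM in CTRL1106 and 79.8 CPM in CTRL1109, a CTRL range that spanned the CDKO one. Its log2 fold change was -0.16 (-0.62 to 0.30), with -0.36 without CTRL1101 (adjusted p = 0.095) and 0.07 without CTRL1109.

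iMeLC CTRL1101 stood apart from the other CTRL iMeLC libraries in some markers. Its summed fibroblast or feeder markers were 923 CPM of the library total against 486 and 479 CPM in CTRL1106 and CTRL1109, and its HOX genes 29.9 CPM against 9.44 and 10.4 CPM. The CDKO iMeLC libraries had 688 to 929 CPM of the fibroblast or feeder markers and 31.3 to 49.8 CPM of HOX genes. CTRL1101 thus lay within the CDKO range in the former and just below it in the latter. Its streak markers, at 496 CPM, lay between the 192 and 805 CPM of CTRL1106 and CTRL1109. The endoderm markers of all 5 genes summed to 580 to 1315 CPM in CDKO iMeLC and 39.7 to 424 CPM in CTRL iMeLC, without overlap. Of these 5 genes edgeR called 0 between genotypes in iMeLC and DESeq2 1, with 3 at an unadjusted edgeR p under 0.05. Leaving out CTRL1101 gave 2646 genes called in iMeLC in place of 69. The part of these differences in the EZH1 and AEBP2 values was not tested.

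In hESC 8 of the 10 subunit genes had lower means in CDKO, by small amounts that did not pass. RBBP4 stood at 274.5, 287.5 and 275 CPM in CDKO 1, 2 and 3, and at 329, 318 and 308.5 CPM in CTRL 1, 2 and 3 (scaled over the 6 hESC libraries). The genotypes did not overlap, and the log2 fold change was -0.19 (SE 0.07, unadjusted p = 0.0192, adjusted p = 0.21 by edgeR). SUZ12 stood at 48.4, 53.7 and 50.6 CPM in CDKO and 57.4, 56.6 and 60.2 CPM in CTRL, which gives -0.19 on the log2 scale with an SE of 0.08 (adjusted p = 0.267), also without overlap.

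RBBP7 stood at 127, 141 and 143 CPM in CDKO hESC 1, 2 and 3, and at 148, 156 and 174 CPM in CTRL hESC 1, 2 and 3, which gives -0.22 with an SE of 0.09 (adjusted p = 0.245 by edgeR). MTF2 stood at 73.7, 77.2 and 69.0 CPM in CDKO and 77.2, 80.7 and 99.0 CPM in CTRL, which gives -0.23 with an SE of 0.10 (adjusted p = 0.318), with its closest libraries almost touching. These 4 genes, RBBP4, SUZ12, RBBP7 and MTF2, were lower without overlap, where 10.9% of all genes were lower and 11.2% higher without overlap, and no subunit gene was higher without overlap. EZH2 had a log2 fold change of -0.23 with overlapping libraries (95% interval -0.52 to 0.07, adjusted p = 0.434). The median over the 10 genes was -0.17, beside -0.002 over all genes tested.

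Without CDKO hESC 3, the library with the high endoderm markers, the log2 fold changes were -0.18 for RBBP4, -0.18 for SUZ12, -0.25 for RBBP7 and -0.18 for MTF2 (adjusted p = 0.307, 0.375, 0.277 and 0.479 by edgeR). Under the 11 settings run, the RBBP4 value stayed between -0.22 and -0.17 and that of SUZ12 between -0.23 and -0.16, and none passed. MTF2 was at -0.11 without CTRL hESC 3, its highest library, and EZH2 at -0.10 without CTRL hESC 1. Among the CTRL hESC libraries, CTRL hESC 1 had the highest amnion or trophectoderm markers, at 27.4 CPM against 6.12 and 10.8 CPM. Its endoderm markers were also the highest, at 83.7 CPM against 18.9 and 25 CPM. Fibroblast or feeder markers were highest in CTRL hESC 2, at 663 CPM against 543 CPM in CTRL hESC 1. Neuroectoderm markers were highest in CTRL hESC 3, at 5.78 CPM against 5.02 CPM in CTRL hESC 1. The part of these markers in the EZH2 value was not tested.

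The interaction tests the CDKO over CTRL difference in iMeLC against that in hESC, so that a shift shared by the whole of one table drops out. It was called for 4 of 20262 genes (0.0197%) and for no subunit gene, with 3 of the 10 at an unadjusted p under 0.05, beside 11.2% of all genes. DESeq2 called 180 genes and none of the 10. The 3 were SUZ12, with a difference of log2 fold changes of 0.34 (95% interval 0.10 to 0.57, adjusted p = 0.309), RBBP4 with 0.29 (0.09 to 0.49, adjusted p = 0.309) and MTF2 with 0.33 (0.04 to 0.63, adjusted p = 0.398). EED and EZH2 had differences of 0.27 each (adjusted p = 0.491 and 0.569), and of 0.15 and 0.11 without CTRL hESC 1, while MTF2 was at 0.22 without CTRL hESC 3. The median over the 10 genes was 0.26, beside -0.015 over all genes. The wider stage step of SUZ12 in CDKO thus did not pass the test of the difference. DESeq2 gave its lowest adjusted p for RBBP4, at 0.0596.

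**Figure D5:**
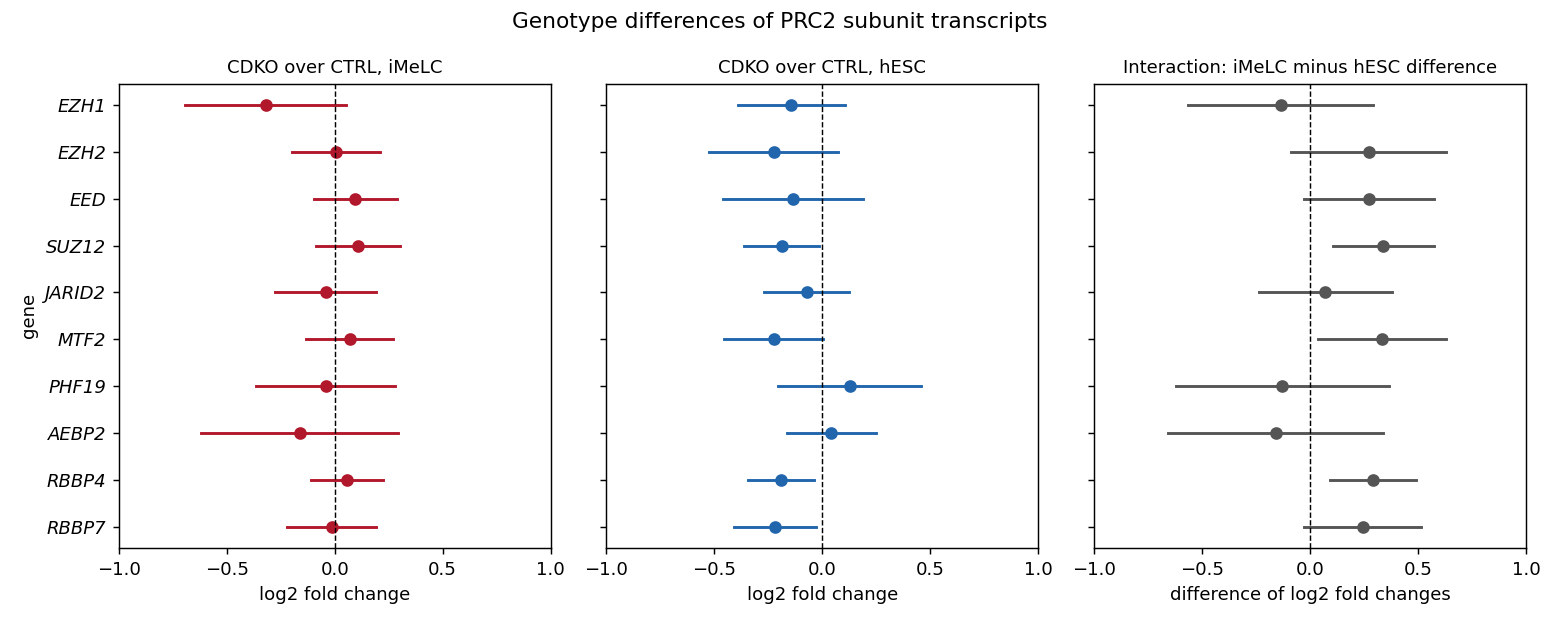
Genotype differences of each subunit transcript as log2 fold changes (x axis), CDKO over CTRL in iMeLC (left) and in hESC (middle), and the interaction, iMeLC minus hESC (right); points are estimates and bars are 95% intervals. Most bars cross 0, those of RBBP4, SUZ12 and RBBP7 in hESC lie just below it, those of SUZ12, RBBP4 and MTF2 in the interaction lie above it, and no adjusted p passed 0.05.

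Less the mean of its stage, the level of EED followed that of EZH2 over the 12 libraries (r = 0.84 of log2 CPM), and SUZ12 followed RBBP4 (r = 0.80), RBBP7 (r = 0.76) and MTF2 (r = 0.76). EZH1 and AEBP2 went together (r = 0.63), and PHF19 ran against MTF2 (r = -0.54). These values describe 12 libraries of 4 groups that share tables and scaling. In hESC, EED and EZH2 were both highest in CTRL hESC 1 (9.84 and 31.2 CPM) and both lowest in CDKO hESC 1 (7.44 and 19.9 CPM). In iMeLC their orders differed: CTRL1101 had the highest EZH2 (101 CPM) but an EED of 39.3 CPM, below every CDKO iMeLC library. No r was computed within a stage. Among 8976 genes of mean at least 10 CPM in each stage, the 5 most like EZH2 were TOPBP1 (r = 0.916), MELK, HERC4, HERC2 and SHMT1 (r = 0.866). The 5 most like SUZ12 were DDX50 (r = 0.916), WDR74, DHX15, SENP6 and SRP54 (r = 0.904), and those most like EZH1 were TM9SF4 (r = 0.948), HPS3, INPP5D, MANBA and FAM13A (r = 0.935).

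Other genes of the pathway were followed through lists. Their stage counts are given with TMM and, since the balance of directions moves with the scale, with library totals. They stand beside a high background. With TMM, 32.1% of all genes were higher and 27.7% lower in CDKO, and 29.5% and 19.9% in CTRL. Among genes of mean at least 10 CPM these shares were 52.7% and 20.1% in CDKO, and 48.6% and 18.6% in CTRL. With library totals, 4505 of 20262 genes were higher and 8795 lower in CDKO, and 4294 and 6673 in CTRL. Of the other PRC2-associated genes (PHF1, EPOP, LCOR, LCORL and EZHIP), 4 were tested between genotypes and 0 were called by edgeR or DESeq2 and 0 had an unadjusted p under 0.05, at either stage. Across stages EPOP, which links the complex to elongin, was higher in iMeLC (11.1 ± 1.85 CPM in CDKO iMeLC and 6.40 ± 0.393 CPM in CDKO hESC), while PHF1, the third Polycomb-like protein, was lower (25.5 ± 2.52 CPM in CDKO iMeLC and 37.0 ± 2.76 CPM in CDKO hESC; SD, n = 3 each). Their log2 fold changes were 0.79 (adjusted p = 0.00149) and -0.54 (adjusted p = 0.0124) in CDKO, and 0.89 and -0.58 in CTRL. With TMM, MTF2 and PHF19 were thus called higher and PHF1 lower, while with library totals MTF2 in CTRL was at -0.04. Of the 5 genes, 1 was higher and 2 lower in CDKO and 1 higher and 3 lower in CTRL, and with library totals 0 and 2 in CDKO and 1 and 4 in CTRL; the list medians were -0.45 in CDKO and -0.47 in CTRL with TMM.

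PRC1, the partner complex that ubiquitinates histone H2A, had 28 genes tested and 0 called between genotypes at either stage by edgeR, with 6 in iMeLC and 2 in hESC at an unadjusted p under 0.05 and 3 and 1 called by DESeq2. Across stages 12 were higher and 6 lower in CDKO, and 12 higher and 7 lower in CTRL; with library totals 8 were higher and 13 lower in CDKO, and 9 and 13 in CTRL. RNF2, its catalytic subunit, averaged 67.5 ± 1.67 CPM in CDKO iMeLC and 31.2 ± 2.48 CPM in CDKO hESC, and 55.6 ± 2.43 CPM in CTRL iMeLC and 33.5 ± 1.84 CPM in CTRL hESC (SD, n = 3 each). CBX2, a reader of the PRC2 mark, was lower, at 93.9 ± 4.64 CPM in CDKO iMeLC and 233 ± 8.20 CPM in CDKO hESC, and at 105 ± 12.5 CPM in CTRL iMeLC and 228 ± 25.6 CPM in CTRL hESC. With TMM the list's median log2 fold change was 0.08 in CDKO and 0.07 in CTRL. The medians were 0.36 and 0.29 for genes of mean at least 10 CPM, and -0.08 and -0.01 over all genes.

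The list of enzymes that oppose PRC2 and PRC1 (lysine 27 demethylases and the H2A deubiquitinase PR-DUB) also had 0 of 10 genes called between genotypes at either stage by edgeR, with 2 in iMeLC and 3 in hESC at an unadjusted p under 0.05 and 2 and 1 called by DESeq2. Across stages 2 were higher and 2 lower in CDKO, and 4 higher and 2 lower in CTRL; with library totals 2 were higher and 3 lower in CDKO, and 2 and 4 in CTRL. KDM6A, a demethylase of the same lysine, was higher in iMeLC with TMM, at 159 ± 2.90 CPM in CDKO iMeLC and 86.5 ± 5.52 CPM in CDKO hESC, and at 104 ± 12.7 CPM in CTRL iMeLC and 79.8 ± 7.28 CPM in CTRL hESC (SD, n = 3 each). Its log2 fold change was 0.88 in CDKO and 0.39 in CTRL, beside medians of 0.36 and 0.29 for genes of mean at least 10 CPM. Of the 11 trithorax genes, 0 were called between genotypes by edgeR or DESeq2, with 1 at each stage at an unadjusted p under 0.05. Across stages 6 were higher and 3 lower in CDKO, and 6 higher and 5 lower in CTRL; with library totals 4 were higher and 5 lower in CDKO, and 5 and 5 in CTRL. DPY30, a core subunit of the trithorax methyltransferases, rose 5.09-fold in CDKO and 3.77-fold in CTRL, at 47.1 ± 2.65 CPM in CDKO iMeLC and 9.27 ± 0.767 CPM in CDKO hESC.

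RBBP4 and RBBP7 serve in further complexes, so their partners there were counted. Of 18 such genes, 11 were higher and 2 lower in CDKO iMeLC than in CDKO hESC, and 9 higher and 2 lower in CTRL. Of genes of mean at least 10 CPM, 52.7% were higher and 20.1% lower in CDKO, and 48.6% and 18.6% in CTRL. The list medians were 0.56 and 0.36, beside 0.36 and 0.29 for genes of mean at least 10 CPM and -0.08 and -0.01 over all genes. With library totals 8 of the 18 were higher and 6 lower in CDKO, and 8 and 7 in CTRL. HAT1, the acetyltransferase that works with RBBP7, averaged 94.6 ± 6.71 CPM in CDKO iMeLC and 22.5 ± 3.8 CPM in CDKO hESC (SD, n = 3 each), and the deacetylase HDAC2 averaged 447 ± 21.5 CPM in CDKO iMeLC and 212.5 ± 11.7 CPM in CDKO hESC. Between genotypes edgeR called 0 of the 18, with 3 in iMeLC and 6 in hESC at an unadjusted p under 0.05, and DESeq2 called 3 and 0.

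Cell cycle and E2F target genes, the class to which EZH2 is often counted, rose in part. Of 20, 14 were higher and 1 lower in CDKO iMeLC than in CDKO hESC, and 12 higher and 1 lower in CTRL. Of genes of mean at least 10 CPM, 52.7% were higher and 20.1% lower in CDKO, and 48.6% and 18.6% in CTRL. The list medians were 0.44 and 0.34, beside 0.36 and 0.29 for genes of mean at least 10 CPM and -0.08 and -0.01 over all genes. With library totals 7 of the 20 were higher and 5 lower in CDKO, and 8 and 6 in CTRL. MCM6 had a log2 fold change of 2.21 in CDKO and 1.98 in CTRL, TYMS 1.93 and 1.79, CDK1 1.81 and 1.40, and AURKA 1.16 and 1.06. Summed over the list as CPM of library totals, the stages overlapped, at 4636 to 5236 CPM in iMeLC and 4735 to 5435 CPM in hESC. Between genotypes edgeR called 0 of the 20, with 3 in iMeLC and 1 in hESC at an unadjusted p under 0.05, and DESeq2 called 1 and 0.

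Genes known as targets of the complex were compared between genotypes in a list chosen with earlier results of these data known. Of 61 developmental regulators on the list, 53 passed the filter in iMeLC and 27 in hESC; 1 was called higher in CDKO iMeLC and 4 in CDKO hESC, and 0 lower, by edgeR, with 18 and 9 at an unadjusted p under 0.05, and DESeq2 called 10 and 4. OLIG2, a neural bHLH factor, averaged 1.48 ± 0.194 CPM in CDKO iMeLC and 0.0375 ± 0.0357 CPM in CTRL iMeLC (SD, n = 3 each), and 1.55 ± 0.451 CPM in CDKO hESC and 0.231 ± 0.111 CPM in CTRL hESC. The others called in hESC were HMX1, with 3.97 ± 0.284 CPM in CDKO and 0.651 ± 0.138 CPM in CTRL, OLIG3 and IRX4. The list's median log2 fold change was 0.83 in iMeLC and 0.30 in hESC, beside -0.028 and -0.002 over all genes. Over all genes edgeR called 0.345% in iMeLC and 1.31% in hESC, with 19.8% and 16.1% at an unadjusted p under 0.05. DESeq2 called 1539 of 19999 genes in iMeLC and 618 of 17222 in hESC. Leaving out 1 library at a time, 13 were called in iMeLC without CTRL1101 and 0 without any other library, and in hESC 6 without CTRL 2, 0 without CDKO 2 and 1 or 2 without each other library. Genes pass the filter partly through the group in which they are high. Across stages 16 were higher and 4 lower in CDKO iMeLC than in CDKO hESC, and 10 higher and 8 lower in CTRL (with library totals 15 and 10 in CDKO, and 8 and 13 in CTRL), among them FOXD3, which was lower in both genotypes (1.84 ± 0.425 CPM in CDKO iMeLC and 29.5 ± 4.49 CPM in CDKO hESC).

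Of the 39 HOX genes, which are classic targets, 32 passed the filter in iMeLC and 3 in hESC. In iMeLC edgeR called 0, with 14 at an unadjusted p under 0.05, where 19.8% of all genes were, and DESeq2 called 8. The median log2 fold change was 1.39, and edgeR called 16 without CTRL1101, a setting that called 2646 genes in all. HOXA7 was called in hESC, though not without CDKO hESC 2, at 2.22 ± 0.833 CPM in CDKO and 0.132 ± 0.034 CPM in CTRL (SD, n = 3 each). Summed over the list, HOX counts were 31.3 to 49.8 CPM in CDKO iMeLC, 9.44 to 29.9 CPM in CTRL iMeLC, 9.91 to 13.4 CPM in CDKO hESC and 4.78 to 5.22 CPM in CTRL hESC. Across stages 26 were tested, of which 19 were higher in CDKO iMeLC and 13 in CTRL iMeLC, and 0 lower (18 and 9 higher with library totals). The CTRL count was 3 without CTRL1101, 5 without CTRL hESC 3, 6 without CTRL hESC 1 and 7 in the 6 CTRL libraries alone, and with thinned counts 12 were called in CDKO and 6 in CTRL. HOX genes too pass the filter partly through the group in which they are high.

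Some counts are less certain than their replicates show. RBBP4 shares 1706 exonic bases, 18% of its exon length, with SYNC on the opposite strand, and RBBP7 shares 179 with TXLNG; without the strand setting, reads there cannot be told apart. Pseudogenes named for EZH2, SUZ12 and RBBP4 are annotated but have no row under those names in the count tables. How reads of near-identical copies were assigned is therefore not known. EED holds the microRNA gene MIR6755 within its exons, over 66 bases.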

How the data were processed

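The authors deposited whole-number read counts per gene symbol, 1 table for hESC and 1 for iMeLC. The submitters' processing notes name FastQC, cutadapt, edgeR and the build GRCh38, with no versions; per the labels' protocols the libraries came from a stranded total RNA kit, while neither labels nor notes name the aligner, the counter, the annotation or the strand setting used. All 12 columns were used and 0 left out. The 10 genes and the context lists were chosen with earlier results of these data known.

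Counts were scaled by TMM, filtered with filterByExpr and tested two-sided with edgeR 4.0.16 (quasi-likelihood, R 4.3.3, limma 3.58.1), adjusted by Benjamini-Hochberg over all genes tested, at a threshold of 0.05. Genotypes were compared within the 6 libraries of a stage, and stages and the interaction over 12 libraries. The same lines were used at both stages, and their libraries were treated as independent. The procedure was tested on simulated data with the same spread for every gene and group. The real groups differed in spread between libraries, so that test does not vouch for the fits to them.

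GENCODE 29 gave positions and exon lengths, and 34217 of 36762 symbols matched (93.1%). Likeness used log2(CPM + 0.5), less the stage mean, for genes of mean at least 10 CPM in each stage. From each list, called genes were named, at most 4 per comparison, smallest adjusted p first. Alternatives were RLE factors, DESeq2 1.42.0, no filter, thinned counts, other library sets and leaving out each library; after seeing the data, library totals, a GC and length trend and coding transcript lengths were added. Within groups, chi-square per gene between libraries was 4.41 to 198, so no library was a repeat of another. Figures were drawn with matplotlib 3.10.9 in Python 3.11.15. Protein sequences were not used here.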

Additional observations from a re-analysis of the deposited data

How the results depend on the processing

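EZH2, EED and SUZ12 stayed higher and JARID2 lower in iMeLC, past the threshold, in all 18 tested settings in both genotypes. With library totals, added after seeing the data, 6 subunit genes were called across stages in CDKO and 5 in CTRL, in place of 9 each; AEBP2 in CDKO passed in 10 of 18 settings and MTF2 in CTRL in 5 of 18. No paired analysis was possible because the hESC columns carry no line number. The cause of the changes was not tested.

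Genes called between genotypes in hESC (226) were 618 with DESeq2, 1228 with no filter and 72 in the fit over 12 libraries, and 5 to 493 leaving out 1 library. In iMeLC (69) they were 1539, 428 and 1310, and 15 to 2646. For the interaction (4) they were 180 with DESeq2, 29 with no filter, and 1 to 439. Subunit genes called in iMeLC ranged from 0 to 1.

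Values near 0 changed sign. Leaving out 1 library, hESC values ran from -0.014 to 0.329 for PHF19 and -0.031 to 0.117 for AEBP2; iMeLC values from -0.048 to 0.065 for EZH2, -0.108 to 0.047 for JARID2, -0.127 to 0.094 for PHF19, -0.356 to 0.069 for AEBP2 and -0.057 to 0.053 for RBBP7; and interaction values from -0.027 to 0.134 for JARID2, -0.329 to 0.010 for PHF19 and -0.380 to 0.037 for AEBP2. In iMeLC, RBBP7 was 0.016 in the fit over 12 libraries, and with library totals EZH2 was -0.060, MTF2 -0.001 and RBBP4 -0.010. Across stages EZH1 was -0.255 in CDKO and -0.022 in CTRL with library totals and -0.048 in CDKO with thinned counts, and MTF2 in CTRL was -0.039 with library totals and -0.118 less the GC and length trend. The interaction of JARID2 was -0.014 with library totals.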
